A study of Mus musculus with 30 samples.

Results

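Transcripts of 5 genes of cytosolic RNA sensing were followed in tumor cells of a pair of mouse lines, in 24 bulk RNA sequencing libraries. The genes were taken by name, 4 sensors or sensor partners (Ddx58, also named Rigi, Ifih1, Dhx58 and Ddx60) and their shared adaptor Mavs. No value entered the rule of choice, but earlier results of these data were known when the genes were chosen. They are 5 of the 49315 genes counted, and all 5 were among the 21138 genes tested.

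RIG-I (encoded by Ddx58) and MDA5 (Ifih1) are helicases of the cytosol that bind viral or other abnormal RNA. RIG-I prefers short RNA with a 5′ triphosphate and MDA5 long double-stranded RNA. Both carry CARD domains, through which they engage MAVS on the outer mitochondrial membrane. MAVS assembles into filaments that recruit TRAF ligases and the kinases TBK1 and IKKε, and these activate IRF3, IRF7 and NF-κB to switch on type I interferon genes. LGP2 (Dhx58) belongs to the same helicase family, lacks CARDs and tunes the other sensors. DDX60 is a related helicase described as a promoter of RIG-I signaling. The sensor genes are themselves interferon-stimulated in many cell types, so that interferon made by one cell raises the detection machinery of its neighbors.

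The lines were B16F10, a melanoma line, and 6694c2, a pancreatic ductal adenocarcinoma line, both of C57BL/6 origin. Each was kept for 24 h with vehicle, with 100 ng/mL IFNγ, with 1000 U/mL IFNβ or with 225 μg/mL STING agonist. There were 3 libraries in each of the 8 groups, and neither the content of the vehicle nor the identity of the agonist is given by the labels. Each line stands for 1 tumor, and no source states that the 3 libraries of a group came from separate cultures, so p-values measure the spread between these libraries, which may be technical. The study sequenced these cells to see how tumor cells themselves respond to STING agonist.

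Depth on genes was 15543131 to 32266795 reads a library. The libraries carried the markers of their labels. The summed level of 10 melanocyte genes was 15400 to 19500 CPM (read counts scaled to library size) in B16F10 libraries and 19.9 to 137 CPM in 6694c2 libraries, and that of 10 epithelial genes was 12820 to 15100 CPM in 6694c2 libraries and 15.0 to 137 CPM in B16F10 libraries. All 10 genes of each list were above 0 in every group. The low values were uneven: the melanocyte sum in 6694c2 cells was 89.7 to 92.8 CPM with vehicle, 38.8 to 137 CPM with IFNγ, 28.1 to 42.5 CPM with IFNβ and 19.9 to 23.8 CPM with STING agonist, and the epithelial sum in B16F10 cells was 15.0 to 21.2 CPM with vehicle, 19.0 to 41.9 CPM with IFNγ, 19.8 to 55.6 CPM with IFNβ and 105 to 137 CPM with STING agonist. Markers of immune cells were low throughout, though some differed between the lines. The summed level of 6 myeloid genes was 10.3 to 15.2 CPM in B16F10 and 0.95 to 2.39 CPM in 6694c2 libraries. That of 6 T cell genes was at most 0.371 CPM in B16F10 and 2.93 to 6.16 CPM in 6694c2 libraries. In 6694c2 cells with vehicle, IFNβ or STING agonist, 5 of these 6 were at 0 (Cd3d, Cd3e, Cd3g, Cd4 and Cd8a). The sum there was that of Trac alone. With IFNγ 4 of the 6 were at 0. The summed level of 4 leukocyte genes was 5.55 to 11.5 CPM in B16F10 and 5.70 to 9.81 CPM in 6694c2 libraries. The summed level of 6 B cell genes, none at 0 in any group, was 12.3 to 25.6 CPM with vehicle, 29.9 to 39.6 CPM with IFNγ, 17.96 to 31.8 CPM with IFNβ and 21.02 to 30.0 CPM with STING agonist in B16F10 libraries, where 3, 2 and 1 of the 6 were called higher with IFNγ, IFNβ and STING agonist. Of all genes tested, 12%, 12.7% and 1.93% were called higher there. In 6694c2 libraries the B cell sum was 16.5 to 36.99 CPM, and 0 of the 6 were called by edgeR with any treatment. The part of all these transcripts in the results was not tested. In bulk RNA, fewer expressing cells and less RNA per cell cannot be told apart.

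The start regions of the genes are shown first, because interferon-stimulated genes often carry ISRE-type elements near their start. Such an element, read here as GAAA, 2 bases of any kind and GAAA again, was searched on both strands from 250 bases before to 50 bases after the start in RefSeq's GRCm38.p6 annotation. This window was at hand for 4 of the 5 genes (Ddx58, Ifih1, Ddx60 and Mavs). The motif was in 3 of these 4, and in 3.44% (1131) of all 32851 promoter windows of the same length. Capitals mark the match, and each sequence reads 5′ to 3′ on the strand of its gene, counted from the first transcribed base as position 1.
Ddx58, positions -8 to 22, minus strand, chr4:40239804-40239833: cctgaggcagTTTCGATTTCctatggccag
Ifih1, positions 21 to 50, minus strand, chr2:62646206-62646235: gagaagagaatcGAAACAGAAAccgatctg
Ddx60, positions -60 to -1, plus strand, chr8:61928027-61928086: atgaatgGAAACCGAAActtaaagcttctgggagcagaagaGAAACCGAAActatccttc
Mavs, positions -60 to -1, plus strand, chr2:131234003-131234062: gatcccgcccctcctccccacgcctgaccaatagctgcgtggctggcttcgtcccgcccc
Ddx60 held 2 copies, both read as GAAACCGAAA, at positions -53 to -44 and -19 to -10. The Ddx58 match lay on the opposite strand, at positions 3 to 12, and the Ifih1 match at positions 33 to 42 was on the strand of the gene. Mavs held none in its window. A GAS-type element of the kind linked to IFNγ (TTC, 3 bases of any kind, GAA) was in none of the 4 windows and in 8.3% of all windows. A match is a description of these letters and not a measured binding site.

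In B16F10 cells, 4 of the 5 genes rose with each treatment, and the adaptor Mavs was the one that was not called. With IFNβ, 4 were called higher, against 12.7% of all genes tested. With IFNγ, 4 were called higher against 12%, and with STING agonist 4 against 1.93%. The order of the treatments was STING agonist, then IFNγ, then IFNβ for Ddx58, Ifih1 and Dhx58, while Ddx60 was at like levels with both interferons. In 6694c2 cells, the same 4 genes rose with IFNβ (10.4% of all genes were called higher) and with IFNγ (7.89%). The rise of Dhx58 with IFNγ rests on 26, 46 and 59 reads, in libraries that carry melanocyte transcripts whose part was not tested. None of the 5 was called with STING agonist in 6694c2 cells by edgeR's quasi-likelihood test, where 0.203% of all genes were called higher. There, 1 of the 5 passed an unadjusted p of 0.05, as did 7.81% of all genes. DESeq2 called 0 of the 5 there, and 55 genes higher and 47 lower over all genes.

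**Figure D1:**
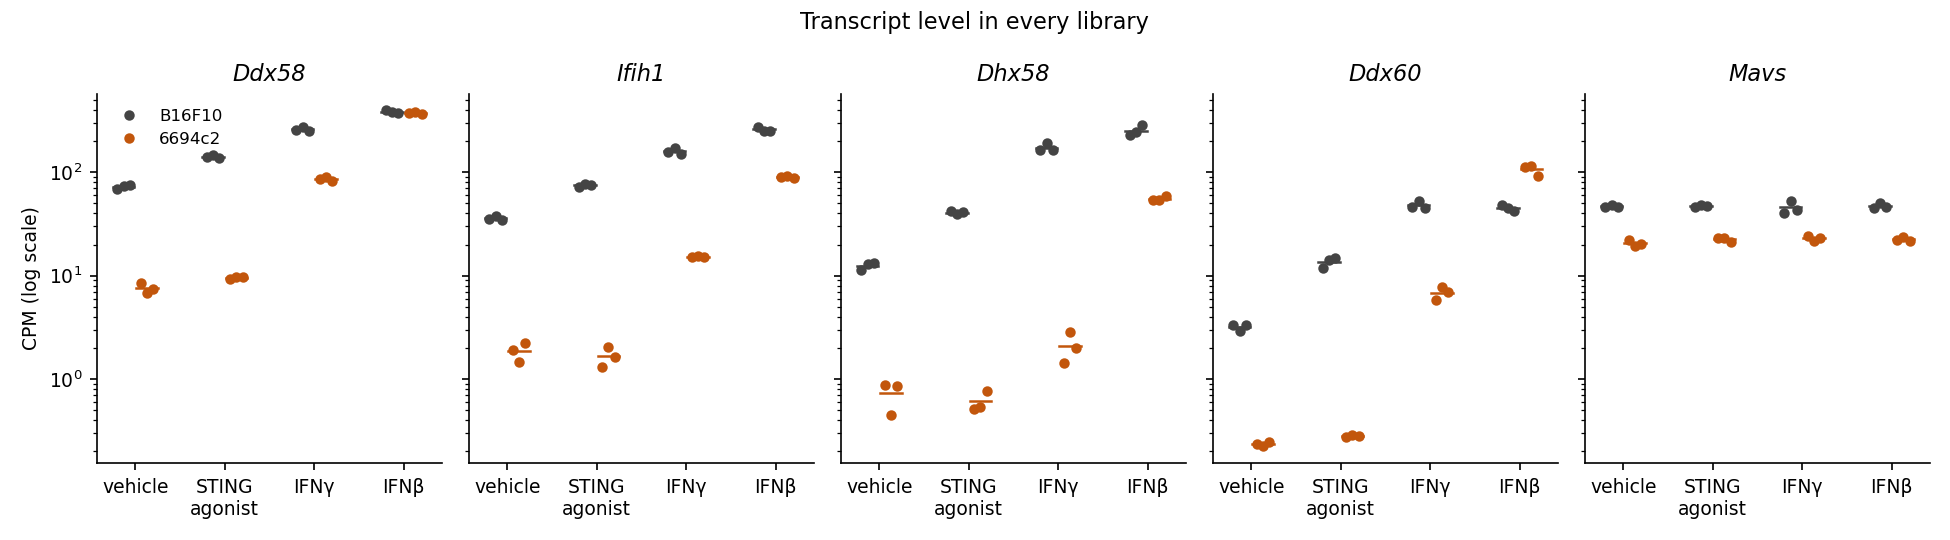
Level of each gene in every library, in CPM on a log axis, with B16F10 libraries in grey and 6694c2 libraries in orange; points are single libraries and bars are means of 3. The 4 sensor genes climb from vehicle to the interferons in both lines, from much lower levels in 6694c2 cells, whereas Mavs stays between 40.6 and 53.1 CPM in B16F10 cells and between 19.3 and 24.3 CPM in 6694c2 cells.

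Ddx58 (ENSMUSG00000040296, chr4:40203773-40239828, minus strand, GRCm38) encodes RIG-I. In B16F10 cells it was at 69.2, 73.7 and 74.5 CPM with vehicle, 140, 146 and 138 CPM with STING agonist, 256, 272 and 252 CPM with IFNγ and 397, 384 and 377 CPM with IFNβ. The 4 groups did not overlap, and each step up was larger than the spread between libraries. Against vehicle, the log2 fold change was 0.96 (SE 0.057, adjusted p = 7.42e-45) with STING agonist, 1.84 (SE 0.057, adjusted p = 1.87e-111) with IFNγ and 2.42 (SE 0.058, adjusted p = 3.12e-147) with IFNβ. In 6694c2 cells it was at 8.40, 6.86 and 7.50 CPM with vehicle, 85.7, 89.0 and 82.1 CPM with IFNγ and 371, 382 and 367 CPM with IFNβ. The log2 fold changes were 3.51 (SE 0.086, adjusted p = 7.40e-32) and 5.66 (SE 0.088, adjusted p = 3.83e-39), that is 11.4-fold and 50.4-fold. With STING agonist, 6694c2 libraries were at 9.21, 9.62 and 9.68 CPM. They were all above the vehicle libraries, but the log2 fold change of 0.33 (95% interval 0.13 to 0.53) had an unadjusted p of 0.0016 from edgeR's fit across all genes and an adjusted p of 0.189, and was not called.

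Ifih1 (ENSMUSG00000026896, chr2:62595798-62646255, minus strand), which encodes MDA5, followed the same order at lower levels. In B16F10 cells it was at 35.5, 37.3 and 34.7 CPM with vehicle, 72.7, 76.8 and 74.8 CPM with STING agonist, 157, 171 and 149 CPM with IFNγ and 275, 251 and 252 CPM with IFNβ. No group overlapped another. The log2 fold changes against vehicle were 1.05 (SE 0.064, adjusted p = 2.02e-44), 2.15 (SE 0.062, adjusted p = 2.69e-120) and 2.86 (SE 0.063, adjusted p = 2.79e-159). In 6694c2 cells it was scarce with vehicle, at 1.93, 1.45 and 2.26 CPM (33, 26 and 37 reads), and was at 15.0, 15.4 and 15.1 CPM with IFNγ and 89.4, 91.0 and 88.6 CPM with IFNβ. Both interferons raised it, by 8.18-fold (adjusted p = 1.82e-21) and 49.0-fold (adjusted p = 1.83e-33). With STING agonist it was at 1.30, 2.05 and 1.62 CPM, within the range of the vehicle libraries apart from 1 library below it, and the log2 fold change of -0.16 had a 95% interval of -0.55 to 0.23.

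Dhx58 (ENSMUSG00000017830, chr11:100694884-100704271, minus strand), which encodes the CARD-less LGP2, parted the interferons most in 6694c2 cells. There it was at 0.875, 0.446 and 0.853 CPM with vehicle (15, 8 and 14 reads), 1.44, 2.82 and 2.01 CPM with IFNγ (26, 46 and 59 reads) and 53.6, 53.8 and 58.7 CPM with IFNβ (1611, 1190 and 1593 reads). The IFNγ libraries were above all vehicle libraries, yet far below the IFNβ libraries. IFNγ raised it by 1.53 on the log2 scale (SE 0.27, adjusted p = 2.65e-05) and IFNβ by 6.29 (SE 0.17, adjusted p = 3.02e-30). The IFNγ libraries of 6694c2 cells also differed in melanocyte transcripts, which summed to 90 CPM in replicate 1, 137 CPM in replicate 2 and 38.8 CPM in replicate 3, and were 89.7 to 92.8 CPM with vehicle. These sums were 0.56%, 0.854% and 0.241% of the mean sum in B16F10 libraries with IFNγ. The same percentages of the B16F10 Dhx58 level with IFNγ come to 0.969, 1.48 and 0.418 CPM in replicates 1, 2 and 3. These are 67.2%, 52.4% and 20.8% of the Dhx58 level in these 6694c2 libraries. That level includes what was present with vehicle, 0.725 CPM on average. The same amounts are therefore a larger part of the rise over vehicle. For the other genes and groups of 6694c2 cells, the like amount was 0.0865% to 13.4% of the level. This reckoning was added after the data had been seen, and the part of such transcripts in the rise of Dhx58 with IFNγ was not tested. Without replicate 2, highest in the melanocyte sum and in Dhx58, the log2 fold change was 1.32 (SE 0.28, adjusted p = 0.000336). It was 1.70 without replicate 1, which had the largest such percentage of its Dhx58 level, and 1.55 without replicate 3. The libraries kept carry melanocyte transcripts too, so these repeats do not test their part. In B16F10 cells Dhx58 rose with both interferons. It was at 11.2, 12.99 and 13.2 CPM with vehicle, 165, 190 and 164 CPM with IFNγ and 229, 244 and 284 CPM with IFNβ. The log2 fold changes were 3.79 (SE 0.072, adjusted p = 1.59e-180) with IFNγ and 4.34 (SE 0.073, adjusted p = 8.23e-201) with IFNβ. STING agonist raised it in B16F10 cells to 41.9, 39.3 and 41.1 CPM, a log2 fold change of 1.69 (SE 0.076, adjusted p = 8.61e-69). In 6694c2 cells with STING agonist it was at 0.512, 0.540 and 0.774 CPM, which overlapped vehicle, and the interval of the log2 fold change was -0.89 to 0.43. The gene Dhx58os lies on the opposite strand over its 3′ part (chr11:100687417-100697520), and whether counting used strand is not given in the sources used here. Dhx58os had at most 9 reads in any library, and whether the overlap took reads from the Dhx58 count was not tested.

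Ddx60 (ENSMUSG00000037921, chr8:61928087-62038244, plus strand) was the least abundant gene with vehicle in both lines. In 6694c2 vehicle libraries it had 4 reads in each of the 3 libraries (0.233, 0.223 and 0.244 CPM), and with STING agonist 7, 8 and 8 reads (0.276, 0.288 and 0.281 CPM). These low counts leave the STING agonist comparison wide, with a log2 fold change of 0.27 and a 95% interval of -0.70 to 1.24. IFNγ brought it to 5.83, 7.72 and 6.92 CPM, a log2 fold change of 4.85 (SE 0.25, adjusted p = 5.65e-20). IFNβ brought it to 113, 116 and 92.5 CPM, a log2 fold change of 8.84 (SE 0.17, adjusted p = 1.55e-35), the largest of the 5 genes in the comparisons with vehicle. In B16F10 cells it was at 3.35, 2.93 and 3.32 CPM with vehicle, 11.8, 14.2 and 14.7 CPM with STING agonist, 46.4, 52.5 and 44.6 CPM with IFNγ and 48.1, 45.5 and 41.9 CPM with IFNβ. STING agonist libraries were above every vehicle library, and the libraries of both interferons overlapped each other above those. The log2 fold changes were 2.08 (SE 0.12, adjusted p = 8.28e-47), 3.90 (SE 0.11, adjusted p = 5.97e-128) and 3.83 (SE 0.11, adjusted p = 2.97e-125).

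Mavs (ENSMUSG00000037523, chr2:131234063-131248025, plus strand), the adaptor that RIG-I and MDA5 engage, was not called with any treatment in either line. In B16F10 cells it was at 46.5, 48.6 and 45.9 CPM with vehicle, 45.9, 48.5 and 47.1 CPM with STING agonist, 40.6, 53.1 and 43.4 CPM with IFNγ and 45.0, 50.2 and 45.7 CPM with IFNβ. All 4 groups overlapped. The 95% intervals of its log2 fold change against vehicle were -0.14 to 0.14 with STING agonist, -0.19 to 0.095 with IFNγ and -0.14 to 0.14 with IFNβ. In 6694c2 cells it was at 22.1, 19.3 and 20.4 CPM with vehicle, 23.1, 23.1 and 21 CPM with STING agonist, 24.3, 21.6 and 23.1 CPM with IFNγ and 21.9, 23.7 and 21.8 CPM with IFNβ. These groups overlapped vehicle too, and the intervals were -0.063 to 0.31, -0.016 to 0.36 and -0.028 to 0.34. Changes of Mavs within these intervals are not excluded.

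**Figure D2:**
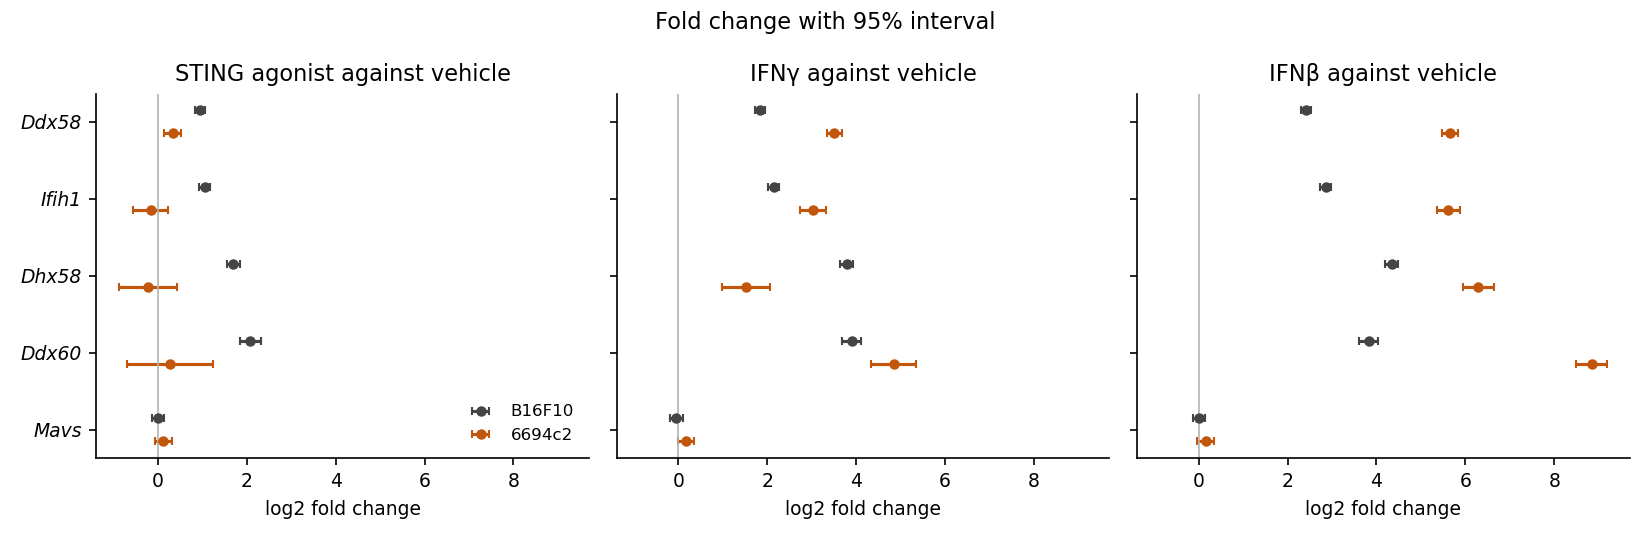
Log2 fold change of each gene against vehicle in B16F10 (grey) and 6694c2 cells (orange), with 95% intervals from edgeR, 3 libraries a group. With IFNβ the 6694c2 points lie to the right of the B16F10 points for the 4 sensor genes, with IFNγ they do so for all of these but Dhx58, and with STING agonist B16F10 points lie to the right for these 4.

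The lines differed before any treatment. All 5 genes were lower in 6694c2 than in B16F10 cells with vehicle, where 29.3% of all genes tested were lower. Ddx58 was lower by 3.26 on the log2 scale (72.5 ± 2.87 against 7.59 ± 0.773 CPM, SD, n = 3). The difference was -4.26 for Ifih1, -4.11 for Dhx58, -3.75 for Ddx60 and -1.19 for Mavs, with adjusted p-values from 2.57e-32 to 3.87e-14. Expressed as a ratio, 6694c2 cells held 0.105 times the Ddx58 level and 0.0522 times the Ifih1 level of B16F10 cells, but 0.438 times the Mavs level. With STING agonist all 5 were again lower (30.3% of all genes), by -3.89 for Ddx58, -5.48 for Ifih1, -6.04 for Dhx58, -5.57 for Ddx60 and -1.08 for Mavs. With IFNγ all 5 were lower (31.1% of all genes). The gap in Ddx58 was then -1.60, and that in Dhx58 was -6.39, or 2.09 ± 0.692 against 173 ± 14.9 CPM.

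With IFNβ the lines came closer, unequally from gene to gene. Ddx58 was at 374 ± 7.51 CPM in 6694c2 and 386 ± 10.1 CPM in B16F10 cells (SD, n = 3), and the libraries overlapped. The log2 difference was -0.047 (95% interval -0.16 to 0.065, adjusted p = 0.485). Ifih1, Dhx58 and Mavs, 3 of the 5, were still lower in 6694c2 cells, by -1.53, -2.19 and -1.06, where 31.5% of all genes were lower. Ddx60 turned the other way. It was higher in 6694c2 cells (107 ± 12.6 against 45.2 ± 3.09 CPM), a log2 difference of 1.25 (SE 0.083, adjusted p = 7.22e-17), in a comparison where 29.9% of all genes were higher.

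Because vehicle levels differed, the responses themselves were compared between the lines, as the log2 fold change in 6694c2 minus that in B16F10 cells. Both fold changes are taken against the vehicle libraries of their own line. Taken as a ratio to vehicle, the response to IFNβ was larger in 6694c2 cells for 4 of the 5 genes. Of all genes, 6.16% were called in this direction. The difference was 3.21 for Ddx58 (SE 0.096), 2.73 for Ifih1 (SE 0.14), 1.92 for Dhx58 (SE 0.25) and 4.99 for Ddx60 (SE 0.30), with adjusted p-values from 1.11e-26 to 2.76e-07. For Mavs it was 0.13 with an interval of -0.11 to 0.37. Vehicle levels of the 4 sensor genes were lower in 6694c2 cells, where Ddx60 had 4 reads in each vehicle library. In level with IFNβ, only Ddx60 was called higher in 6694c2 cells.

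The response to IFNγ did not go one way. It was larger in 6694c2 cells for Ddx58 (1.65, SE 0.098, adjusted p = 2.10e-16) and Ifih1 (0.87, SE 0.16, adjusted p = 0.000165), 2 of the 5 genes, with 4.52% of all genes called in this direction. It was smaller for Dhx58 (-2.28, SE 0.36, adjusted p = 1.28e-05), 1 of the 5, with 4.95% of all genes called. This value rests on the 6694c2 IFNγ libraries with the melanocyte transcripts given above. It was -2.11, -2.48 and -2.25 without replicate 1, 2 or 3 of them. Ddx60 had a difference of 0.93 (interval 0.12 to 1.75, adjusted p = 0.161) and Mavs one of 0.20 (interval -0.042 to 0.44, adjusted p = 0.369), and neither was called.

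The response to STING agonist was smaller in 6694c2 cells for 3 of the 5 genes, with 1.56% of all genes called in this direction. The difference was -0.64 for Ddx58 (SE 0.11, adjusted p = 0.000148), -1.22 for Ifih1 (SE 0.20, adjusted p = 0.000101) and -1.93 for Dhx58 (SE 0.38, adjusted p = 0.00144). That of Ddx60 was of like size at -1.82 but rested on 4 to 8 reads per 6694c2 library (interval -3.01 to -0.63, adjusted p = 0.109). DESeq2 called it, with an adjusted p of 0.0178. Beside these comparisons stand the marker sums above, with epithelial transcripts at 105 to 137 CPM in the B16F10 STING agonist libraries. Each of the 4 sensor genes was lower in every 6694c2 vehicle library than in any B16F10 library. With vehicle, 29.3% of all genes were called lower in 6694c2 cells. With IFNβ, the 6694c2 means were above those of B16F10 cells with STING agonist. They were 374 against 141 CPM for Ddx58, 89.7 against 74.7 for Ifih1, 55.4 against 40.8 for Dhx58 and 107 against 13.6 for Ddx60. The part of the epithelial transcripts in these comparisons was not tested.

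The interferons were also set against each other directly. In 6694c2 cells, 4 of the 5 genes were higher with IFNβ than with IFNγ, where 7.30% of all genes were higher. The log2 difference was 2.15 for Ddx58 (SE 0.069), 2.58 for Ifih1 (SE 0.092), 3.99 for Ddx60 (SE 0.10) and 4.76 for Dhx58 (SE 0.14), that is from 4.43-fold to 27.1-fold, with adjusted p-values from 1.05e-30 to 1.39e-25. In B16F10 cells 3 of the 5 were higher with IFNβ, where 6.65% of all genes were higher. These were Ddx58 at 0.58 (SE 0.054), Ifih1 at 0.71 (SE 0.056) and Dhx58 at 0.55 (SE 0.058), all under 1.64-fold. Ddx60 in B16F10 cells had a difference of -0.073 (interval -0.23 to 0.079, adjusted p = 0.654). The gap between the interferons was wider in 6694c2 cells by 1.56 for Ddx58, 1.86 for Ifih1, 4.20 for Dhx58 and 4.06 for Ddx60, 4 of the 5 genes, with 4.58% of all genes called in this direction and adjusted p-values from 4.50e-25 to 4.89e-18. This last comparison was added after the data had been seen.

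**Figure D3:**
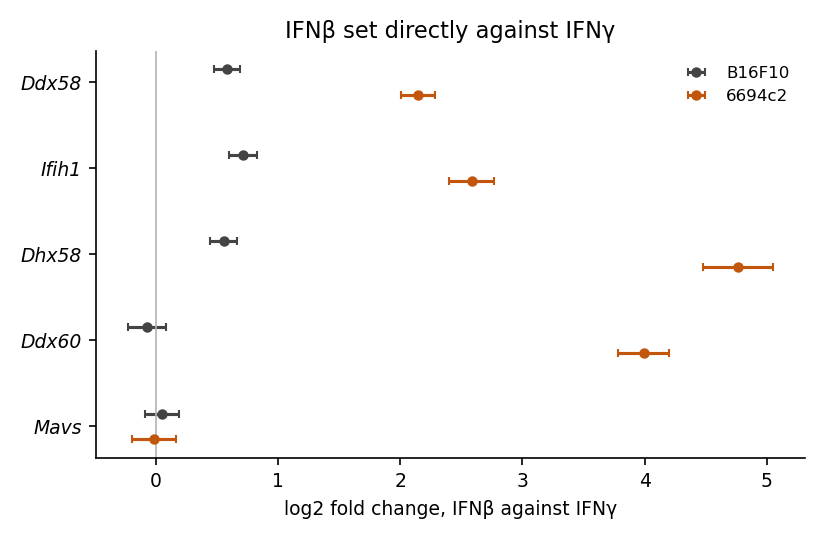
Log2 fold change with IFNβ directly against IFNγ in B16F10 (grey) and 6694c2 cells (orange), with 95% intervals from edgeR, 3 libraries a group. In B16F10 cells no gene is beyond 0.71, whereas in 6694c2 cells the 4 sensor genes lie between 2.15 and 4.76, and Mavs is near 0 in both.

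IFNγ and STING agonist differed in both lines. In B16F10 cells 4 of the 5 genes were higher with IFNγ than with STING agonist (11% of all genes), by 0.88 for Ddx58, 1.09 for Ifih1, 2.09 for Dhx58 and 1.82 for Ddx60. In 6694c2 cells 4 of the 5 were higher (7.06% of all genes), by 3.18 for Ddx58, 3.19 for Ifih1, 1.75 for Dhx58 and 4.58 for Ddx60. Mavs was called in neither, with log2 differences of -0.045 and 0.050.

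To compare levels between genes, CPM was divided by the length of the gene in kilobases (CPM per kb). With vehicle the adaptor was above every sensor in both lines. In B16F10 cells Mavs was at 14.1 CPM per kb, followed by Ddx58 at 10.3, Ifih1 at 4.39, Dhx58 at 3.81 and Ddx60 at 0.368. In 6694c2 cells Mavs was at 6.16 CPM per kb and Ddx58 at 1.08, and Ifih1 (0.230) and Dhx58 (0.222) were within each other's spread. Ddx60 was last at 0.0269. With IFNβ the order turned over. In B16F10 cells Dhx58 was first at 77.2 ± 8.66 CPM per kb, then Ddx58 at 54.8 ± 1.44, Ifih1 at 31.8 ± 1.62, Mavs at 14.04 ± 0.849 and Ddx60 at 5.20 ± 0.356 (SD, n = 3). In 6694c2 cells Ddx58 was first at 53.0 ± 1.07 CPM per kb, followed by Dhx58 at 16.9 ± 0.875, Ddx60 at 12.3 ± 1.45 and Ifih1 at 10.98 ± 0.148, of which the last pair overlapped, with Mavs last at 6.72 ± 0.314. With IFNγ, Dhx58 was the first gene in B16F10 cells (52.9 CPM per kb) and had the lowest mean in 6694c2 cells (0.639 CPM per kb), where its libraries overlapped those of Ddx60. Relative to Mavs, Ddx58 went from 0.731 with vehicle to 3.90 with IFNβ in B16F10 cells, and from 0.175 to 7.89 in 6694c2 cells.

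**Figure D4:**
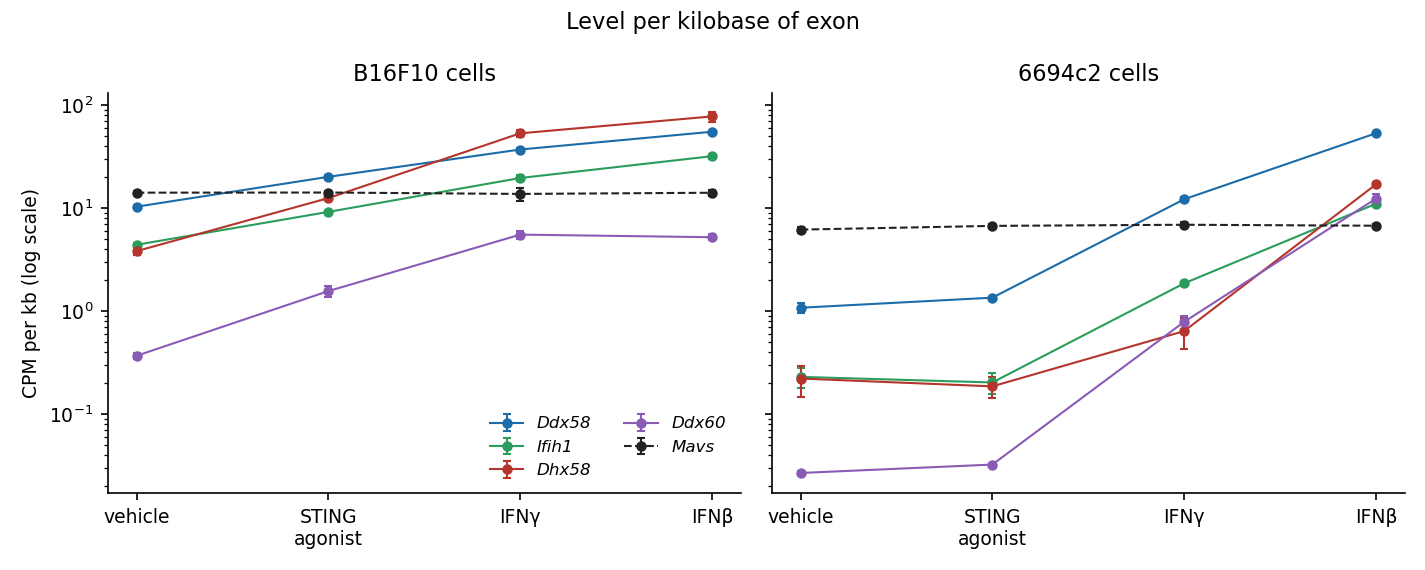
Mean level per kilobase of each gene by treatment in B16F10 (left) and 6694c2 cells (right), in CPM per kb on a log axis, with SD over 3 libraries; lines only join the points of a gene. The sensors start below the dashed line of Mavs with vehicle; with IFNβ all of them but Ddx60 in B16F10 cells are above it.

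Ordered by level in CPM over the 8 groups, the 3 RIG-I-like receptor genes were highest in B16F10 cells with IFNβ and lowest in 6694c2 cells with vehicle or STING agonist. For Ddx58 the first neighbors (IFNβ in B16F10 and in 6694c2 cells) and the last (STING agonist and vehicle in 6694c2 cells) were not called against each other. For Ifih1 and Dhx58 the last neighbors, again vehicle and STING agonist in 6694c2 cells, overlapped. Ddx60 alone was highest in 6694c2 cells with IFNβ, and IFNγ and IFNβ in B16F10 cells came next and overlapped. For Mavs the 4 B16F10 groups lay together above the 4 6694c2 groups.

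The rest of the pathway was described from lists, by counts beside those of all genes, with no test of a list. With IFNβ, 12.7% of all genes were called higher and 11.2% lower in B16F10 cells, and 10.4% and 7.86% in 6694c2 cells. With IFNγ these shares were 12% and 10.8% in B16F10 cells and 7.89% and 5.66% in 6694c2 cells, and with STING agonist 1.93% and 1.53%, and 0.203% and 0.156%. Of 11 cofactors that modify or assist the sensors, 4 were higher and 2 lower with IFNβ in B16F10 cells, and 3 were higher and 1 lower in 6694c2 cells. The median log2 fold change was 0.15 in B16F10 cells and -0.060 in 6694c2 cells, beside 0.019 and 0 over all genes. Rnf135 (Riplet, the ubiquitin ligase that activates RIG-I) rose with IFNβ by 2.36 on the log2 scale in B16F10 and 2.38 in 6694c2 cells. With IFNγ Rnf135 rose by 2.38 in B16F10 cells but 0.42 in 6694c2 cells, a difference of -1.98 (SE 0.13, adjusted p = 7.09e-15). Trim25, another ligase tied to RIG-I, rose with IFNβ by 1.62 and 2.57 in B16F10 and 6694c2 cells. Zc3hav1, which encodes the zinc finger antiviral protein, rose with IFNβ by 1.11 and 1.71. With STING agonist in B16F10 cells, 3 cofactors rose and 1 fell, and the 3 were Trim25 (0.32), Rnf135 (0.33) and Zc3hav1 (0.20), and the 1 was Dhx15 (-0.17). These 4 calls became 1 without vehicle replicate 2 or STING agonist replicate 3, and 2 without vehicle replicate 1 or STING agonist replicate 2. In 6694c2 cells 0 of 11 were called with STING agonist by edgeR.

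Of 16 genes listed as inhibitors of the pathway, 5 were higher and 2 lower with IFNβ in B16F10 cells, and 4 were higher and 0 lower in 6694c2 cells, with medians of 0.17 and 0.092. With IFNγ, 7 were higher and 0 lower in each line. Most of these changes were small, and 1 inhibitor changed over 2-fold upward with IFNβ in each line. This was Usp18, the ISG15 protease that also damps the type I interferon receptor. Usp18 was at 50.5 ± 5.02 CPM with vehicle and 876 ± 26.3 CPM with IFNβ in B16F10 cells, and at 1.63 ± 0.625 and 504 ± 31 CPM in 6694c2 cells, log2 fold changes of 4.12 and 8.32. It was the 1 inhibitor called with STING agonist in B16F10 cells, at 1.15.

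Of 22 genes that relay the signal from MAVS, 7 were higher and 3 lower with IFNβ in B16F10 cells, and 7 were higher and 0 lower in 6694c2 cells, with medians of 0.074 and 0.12. With IFNγ, 8 were higher and 2 lower in B16F10 cells and 7 higher and 1 lower in 6694c2 cells. Irf7, the factor that amplifies interferon transcription, differed most between the lines among the relay genes named. It was at 0.915 ± 0.359 CPM with vehicle and 2.61 ± 0.289 CPM with IFNβ in B16F10 cells. In 6694c2 cells Irf7 was at 0.95 ± 0.449 CPM with vehicle and 962 ± 58.2 CPM with IFNβ. The log2 fold changes of Irf7 were 1.49 and 10.01, a difference of 8.50 (SE 0.52, adjusted p = 4.28e-16), with no difference called between the lines with vehicle (0.023, adjusted p = 0.978). With STING agonist Irf7 was the 1 relay gene called in 6694c2 cells (1.62, adjusted p = 2.91e-06), to 2.94 ± 0.452 CPM. Traf5, an adaptor ligase, rose with IFNβ by 0.92 in B16F10 cells (adjusted p = 0.0444) and by 1.72 in 6694c2 cells, from levels under 1 CPM. The B16F10 call of Traf5 was lost without vehicle replicate 1 (adjusted p = 0.157), vehicle replicate 2 (0.206) or IFNβ replicate 1 (0.267), and under 4 other settings.

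Of 17 genes of other RNA sensing pathways (PKR, ZBP1, ADAR, the oligoadenylate synthetases with RNase L, the IFITs and others), 16 were higher and 0 lower with IFNβ in each line, with medians of 3.71 in B16F10 and 7.05 in 6694c2 cells. The one not called was Tlr7 in both. With IFNγ, 16 were higher in B16F10 cells and 14 in 6694c2 cells. With STING agonist, 12 were higher in B16F10 cells (median 0.78) and 3 in 6694c2 cells (median 0.22, beside 0 over all genes). Ifit3, which binds RNA as part of the IFIT complex, rose with IFNβ by 5.54 in B16F10 and 9.14 in 6694c2 cells, though its near-identical copy Ifit3b can share reads. Oasl2 rose by 5.64 and 7.93, and Zbp1, the sensor of Z-form nucleic acid, by 6.55 and 7.47. Zbp1 was the one member of this list that was lower with IFNβ than with IFNγ in B16F10 cells (-1.06). The 3 called in 6694c2 cells with STING agonist, named after their values were seen, were Ifit3 (0.97), Ifit1 (0.62) and Oasl1 (0.31). Without vehicle replicate 2 or 3, or STING agonist replicate 1 or 3, 1 of them was called.

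Of 14 helicases of general RNA metabolism, 13 were matched and tested, and 3 were higher and 4 lower with IFNβ in B16F10 cells, with 2 and 2 in 6694c2 cells, none over 2-fold upward (medians -0.072 and -0.0026). With IFNγ, 4 were higher and 5 lower in B16F10 cells and 2 higher and 1 lower in 6694c2 cells. These counts leaned on single libraries. The 9 calls with IFNγ in B16F10 cells became 5 without IFNγ replicate 2, the 4 with IFNβ in 6694c2 cells became 2 without vehicle replicate 2, and the 3 with IFNγ in 6694c2 cells became 1 without vehicle replicate 2 or 3 or IFNγ replicate 2 or 3. With STING agonist edgeR called 0 of 13 in either line. The interferon genes at the end of the pathway could not be compared. Of 19 type I and type III interferon genes listed, 0 had 10 reads over the 24 libraries combined.

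Across the 24 libraries, after each line's own mean was taken out, the sensors moved together as a description of shared treatments. Pearson's r of log2(CPM + 0.5) was 0.991 between Ddx58 and Ifih1, 0.979 between Ddx58 and Ddx60, 0.988 between Ifih1 and Ddx60, 0.937 between Ifih1 and Dhx58 and 0.897 between Ddx58 and Dhx58. With Mavs it was 0.0779 to 0.245. Of 12386 genes compared, those most like Ddx58 were Bst2 (tetherin, r = 0.996), Isg15 (r = 0.996) and Oas1a (r = 0.995). Those most like Ifih1 were Cmpk2 (r = 0.993), Ddx58 (r = 0.991) and Eif2ak2 (PKR, r = 0.991). Those most like Dhx58 were Rsad2 (viperin, r = 0.975), Trim30a (r = 0.974) and Trim30d (r = 0.972), and those most like Ddx60 were Ifih1 (r = 0.988), Ifit1 (r = 0.985) and Cmpk2 (r = 0.985). No gene came near this for Mavs, whose closest were Zfp668 (r = 0.702), Tnfsf9 (r = 0.674) and Trmt12 (r = 0.646). All these points share libraries and treatments, and no p is given for them.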

How the data were processed

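The authors trimmed adaptors with cutadapt, aligned paired-end reads with STAR (mm10 per the labels), used Rsubread for counting per gene, and deposited unnormalized counts. Annotation, strandedness and treatment of multi-mapping reads are not given in the sources used here. Symbols were found for 48970 of 49315 gene identifiers. The 5 genes have the same start, end and strand in GENCODE M21 (GRCm38). Libraries held 15543131 to 32266795 reads on genes. The single-cell samples were left out.

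Tests used edgeR 4.0.16 (R 4.3.3) on the 21138 genes whose reads over the 24 libraries came to 10 or more. Treatments were tested within the 12 libraries of a line, and contrasts between lines over all 24, by the quasi-likelihood test after TMM normalization. Benjamini-Hochberg adjustment covered all of these genes, and an adjusted p under 0.05 was called. SEs and 95% intervals were derived from the fold change and F statistic. CPM uses TMM-scaled library sizes over the 24 libraries. With 3 libraries against 3, the lowest p an exact test could reach is 0.1. Promoter windows are from RefSeq, GRCm38.p6.

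The members and lists were chosen with earlier results of these data known. Of each list, up to 3 genes were named, those with the smallest p with IFNβ among genes called in both lines and over 2-fold in at least 1, and for each member the 3 genes of highest correlation among those with a mean of at least 1 CPM. Genes of a list called with STING agonist in 6694c2 cells were named after their values were seen, as were Tlr7, and the cofactors called with STING agonist in B16F10 cells. Alternatives were DESeq2 1.42.0, RLE size factors, other low-count filters, other libraries in the fit, a replicate block, each library left out, scaling to total reads and, added after seeing the data, a robust fit.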

Additional observations from a re-analysis of the deposited data

Results flagged for a closer look

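The treatment response differed between the lines, by a test of the difference itself (6694c2 minus B16F10 cells, log2 scale, edgeR over 24 libraries). For IFNβ the difference was 3.21 for Ddx58, 2.73 for Ifih1, 1.92 for Dhx58 and 4.99 for Ddx60, with 6.16% of all genes called in this direction. For IFNγ it was 1.65 for Ddx58 and 0.87 for Ifih1, and -2.28 for Dhx58, the gene whose response was the smaller in 6694c2 cells. The Dhx58 value rests on 6694c2 IFNγ libraries that carry melanocyte transcripts, whose part was not tested. For STING agonist the difference was -0.64 for Ddx58, -1.22 for Ifih1 and -1.93 for Dhx58. For IFNβ against IFNγ, a comparison added after seeing the data, it was 1.56 for Ddx58, 1.86 for Ifih1, 4.20 for Dhx58 and 4.06 for Ddx60. Mavs was called in none of these 4 comparisons by edgeR.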

How the results depend on the processing

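Counts of the 5 genes called stayed within 1.5 times in all 268 repeats. Of their repeated fold changes, 1316 kept direction and side of the threshold and 2 became calls, and 22 changed sign, all of Mavs in comparisons where it was called in neither (adjusted p of 0.746 or more). The new calls were Mavs in the IFNγ difference between lines without B16F10 IFNγ replicate 2 (0.38, adjusted p = 0.0316), and Ddx60 in the STING agonist difference with DESeq2 (-1.83, adjusted p = 0.0178); the cause was not tested. Mavs with IFNβ in B16F10 cells became -0.011 with RLE size factors and with DESeq2, -0.0036 with all 24 libraries in the fit, -0.0048 with only the groups compared and -0.053 to 0.033 with a library left out, and with STING agonist 0.0077 with RLE size factors and the filterByExpr minimum, 0.0074 with DESeq2, 0.0058 with all 24 libraries, 0.0082 with only the groups compared and -0.022 to 0.027 with a library left out. Its other changes of sign came with 1 library left out, over which it ranged from -0.17 to 0.041 (IFNγ, B16F10), -0.037 to 0.17 (IFNβ against IFNγ, B16F10), -0.17 to 0.043 (IFNγ against STING agonist, B16F10), -0.072 to 0.021 (IFNβ against IFNγ, 6694c2) and -0.20 to 0.012 (the difference of that between lines). Traf5 with IFNβ in B16F10 cells lost its call in 7 repeats (adjusted p = 0.0532 to 0.267). Scaling to total reads moved 23 of 40 levels per kilobase beyond 1 SD, by 0.923 to 1.10 times. Replicate numbers did not pair the libraries (correlations of deviations -0.221 to 0.269, with every library closest to its own number in 1 of 14 comparisons). A replicate block changed no call of the 5 genes and gave 82 higher and 44 lower genes over all genes with STING agonist in 6694c2 cells, against 43 and 33 without it.

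List counts moved as follows, and the cause was not tested. With STING agonist in B16F10 cells, the 4 cofactors called became 1 and the 2 relay genes 1 with all 24 libraries in the fit, the 1 inhibitor became 3 with DESeq2 and with only the groups compared, and the 0 helicases became 1 with only the groups compared. The 3 other RNA sensing genes called with STING agonist in 6694c2 cells became 1 under the filterByExpr minimum and with only the groups compared. With 1 library left out, ranges were 1 to 3 for these cofactors (1 without vehicle replicate 2 or STING agonist replicate 3, 2 without vehicle replicate 1 or STING agonist replicate 2), 1 to 2 for these relay genes (2 only without vehicle replicate 3), and 1 to 2 for the 6694c2 RNA sensing genes (1 without vehicle replicate 2 or 3, or STING agonist replicate 1 or 3). Of the helicases, 9 were called with IFNγ in B16F10 cells and 5 to 8 with a library left out (5 without IFNγ replicate 2), 4 with IFNβ in 6694c2 cells and 2 to 6 (2 without vehicle replicate 2), and 3 with IFNγ in 6694c2 cells and 1 to 3 (1 without vehicle replicate 2 or 3, or IFNγ replicate 2 or 3). Reads limit Ddx60, Dhx58 and Ifih1 in 6694c2 cells with vehicle or STING agonist, where Ddx60 had 4 to 8 reads per library.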
